A study of Mus musculus with 13 samples.

Results

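This report describes the effect of dietary HMB on gene expression in tumors of mice fed the control diet. HMB (β-hydroxy-β-methylbutyrate) is a metabolite of the amino acid leucine. The comparison was between 3 arrays of the group control + HMB and 3 arrays of the group control, and these 6 arrays were chosen by their labels from the 13 arrays of the study. All 4 groups were male C57BL/6 mice carrying a subcutaneous tumor of the Panc02 line, which came from a pancreatic ductal adenocarcinoma of the mouse, and no mouse gave more than 1 array. The control group ate a low-fat diet without HMB and the control + HMB group ate the same diet with HMB mixed in as its calcium salt from before tumor cell injection. The remaining groups, DIO (3 arrays) and DIO + HMB (4 arrays), had diet-induced obesity from a high-fat diet and entered the shared model. The labels give neither the age of the mice nor whether these mice were among those injected with gemcitabine. The model is limited to 1 transplanted cell line grown under the skin rather than in the pancreas. RNA came from homogenized whole tumor, so a lower signal from fewer cells of a type and from less RNA per cell cannot be told apart.

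In the body a small share of leucine is turned into HMB by way of its keto acid, and the enzyme 4-hydroxyphenylpyruvate dioxygenase, encoded by Hpd, carries out that step in liver. HMB can be converted to HMG-CoA, the substrate from which the mevalonate pathway makes cholesterol and the isoprenoid chains of prenylated proteins, dolichol and ubiquinone. Dolichol carries the sugar chain that is attached to asparagine residues of proteins in the endoplasmic reticulum (ER). Leucine and its metabolites are also known as activators of mTORC1 in muscle.

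Signal was measured for 41345 probe sets, from which 22180 genes were taken. Values below are RMA signals on the log2 scale, and a difference is the mean of control + HMB minus the mean of control, with its standard error (SE). The 6 arrays correlated with one another at 0.978 to 0.989 over genes, and no 2 of them shared more than 38 identical values. The SD over genes in 1 array, called its width here, was wider in every control + HMB array (2.57 to 2.62) than in every control array (2.51 to 2.54). Keratin 8 (Krt8) measured 8.93 to 9.28 and keratin 18 (Krt18) 9.31 to 9.74 over the 6 arrays, whereas the pancreatic acinar genes Cpa1 (3.31 to 3.66) and Ptf1a (2.78 to 3.15) lay below the arrays' medians over all genes, which were 4.27 to 4.65. The ductal markers Epcam (3.84 to 4.65) and Krt19 (3.30 to 4.39) were also near or below those medians.

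No gene passed the adjusted threshold of 0.05 when control + HMB was compared with control by limma with Benjamini-Hochberg adjustment over all 22180 genes. The methods' t-test on the same values also gave 0 genes after that adjustment. Kctd21 and 1700001J11Rik came closest with an adjusted p of 0.0816, followed by Zbtb24 with 0.271. Without adjustment, 1601 genes (7.22% of all) were higher in control + HMB at a p under 0.05 and 936 (4.22%) were lower. The methods' t-test gave 1494 higher and 649 lower at that threshold. In 2518 genes (11.4%) all 3 control + HMB arrays lay above all 3 control arrays, and in 1346 (6.07%) all lay below. All lists and genes described below are read against these shares, and none of them contains a gene that passed over all genes.

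The direction of the differences depended on how strong a gene's signal was. The 11090 genes whose mean signal was above the median are called strong genes here and the other 11090 weak genes. Among the strong genes, 71.2% were higher in control + HMB, 12.1% were higher at an unadjusted p under 0.05 and 2.48% were lower. Among the weak genes, 39.5% were higher, 2.33% were higher at that threshold and 5.96% were lower. Of weak genes 3.94% did not overlap in the higher direction and 8.38% in the lower. With genes cut into 10 level classes of equal size, genes without overlap in the higher direction made up 3.07% of the weakest class and 22.5% of the strongest, whereas those in the lower direction made up 8.66% and 5.37%. Most lists below consisted mainly of strong genes, of which 18.8% did not overlap in the higher direction and 3.76% in the lower.

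**Figure D1:**
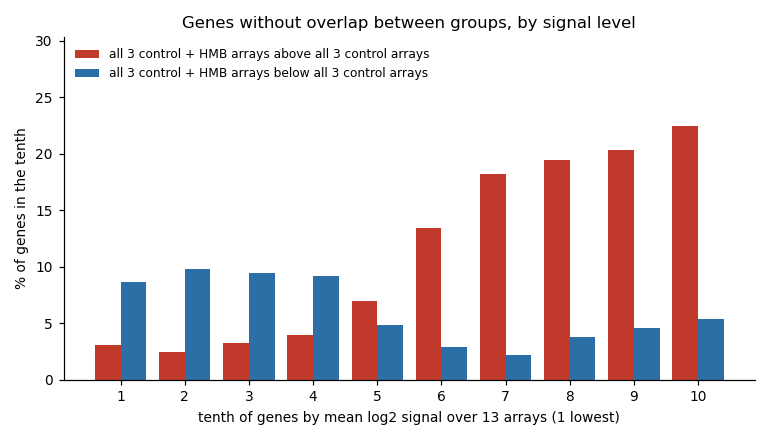
Share of genes (y axis, % of the class) whose 3 control + HMB arrays all lay above (red) or all below (blue) the 3 control arrays, by class of mean log2 signal over 13 arrays (x axis, 10 classes of equal size, 1 lowest). The red share went from 3.07% in class 1 to 22.5% in class 10, and the blue share was larger than the red only in classes 1 to 4.

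The width of the arrays moved with the groups, and 2 alternatives were therefore run for the counts over all genes, the named genes and 32 of the gene lists. When each array was centred and scaled to the same width, the median difference of all genes moved from 0.04 to −0.12, and the calls at an unadjusted p under 0.05 became 355 higher and 1956 lower, or 15.4% higher of all calls against 63.1% in the deposited values. With array width as a covariate the median was 0.02 and the calls were 530 higher and 427 lower, or 55.4% higher. The part of array width in the differences was not tested. Control + HMB replicate 2 had the widest array (2.62), and it had the highest mean of the 6 arrays in 26 of 52 gene lists. Control replicate 2 had the lowest mean in 21 lists and control replicate 1 in 20. Without control + HMB replicate 2 the calls at an unadjusted p under 0.05 were 935 higher (4.22%) and 595 lower (2.68%). In the paragraphs below a list's median is given as deposited, with the settings and left-out arrays that moved it most.

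The genes with the lowest unadjusted p among those higher in control + HMB were led by Kctd21, which encodes an adaptor of cullin 3 ubiquitin ligases known to restrain Hedgehog signaling. Its signal was 3.81, 3.75 and 4.21 in the control arrays and 5.33, 6.04 and 5.41 in the control + HMB arrays, a difference of 1.67 (SE 0.22). The groups were separated by more than 1 log2 unit. Of 19 KCTD genes, 14 of them strong genes, 11 were higher. Their median of 0.04 flipped to −0.09 with scaled arrays and −0.03 without control + HMB replicate 2. Relative to all genes these 2 medians were 0.02 and −0.06. At an unadjusted p under 0.05, 3 (15.8%) were higher, where 7.22% of all genes and 12.1% of strong genes were. They were Kctd21, Kctd13 (0.46, SE 0.18) and Kctd10 (0.38, SE 0.17). Zbtb24, a zinc finger protein needed for DNA methylation at repeats in human cells, measured 4.80, 4.997 and 4.74 in control and 5.87, 6.10 and 5.73 in control + HMB, a difference of 1.06 (SE 0.18). Senp8 encodes the protease that removes NEDD8 from proteins. It measured 3.11, 3.64 and 2.91 against 4.45, 4.39 and 4.44, so that the control + HMB arrays lay within 0.1 of each other and all above the control arrays.

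Ggps1, the synthase of geranylgeranyl diphosphate in the mevalonate pathway, measured 7.05, 7.35 and 7.03 in control and 8.13, 7.98 and 7.71 in control + HMB, a difference of 0.79 (SE 0.14). Pafah2, an acetylhydrolase that inactivates platelet-activating factor and oxidized phospholipids, measured 4.25, 4.80 and 4.62 against 5.49, 5.54 and 5.54, a difference of 0.97 (SE 0.18). Narf, whose product binds prenylated prelamin A in human cells, measured 6.93, 6.89 and 7.15 against 7.66, 8.02 and 7.58, a difference of 0.76 (SE 0.16). In each of these genes the lowest control + HMB array lay above the highest control array.

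Havcr2 encodes TIM-3, an inhibitory receptor of T cells, macrophages and dendritic cells. It measured 6.61, 6.27 and 6.78 in control and 7.35, 7.71 and 7.61 in control + HMB, a difference of 1.00 (SE 0.18). Nfya, the subunit of the transcription factor NF-Y that recognizes the CCAAT box, measured 8.08, 8.45 and 8.21 against 9.17, 9.33 and 8.91, a difference of 0.89 (SE 0.17). The other NF-Y subunits differed by 0.40 (Nfyb, SE 0.18) and 0.24 (Nfyc, SE 0.20), and their groups overlapped. The remaining higher genes of lowest p were Lrrc19 (0.63), Tox4 (0.70), a member of a protein phosphatase 1 complex, Gdap2 (0.73) and the zinc finger gene Zfp518a (0.67), all without overlap. The 12 genes were those of lowest p after 2 predicted genes, clones, small RNAs or receptor genes of lower p were skipped.

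**Figure D2:**
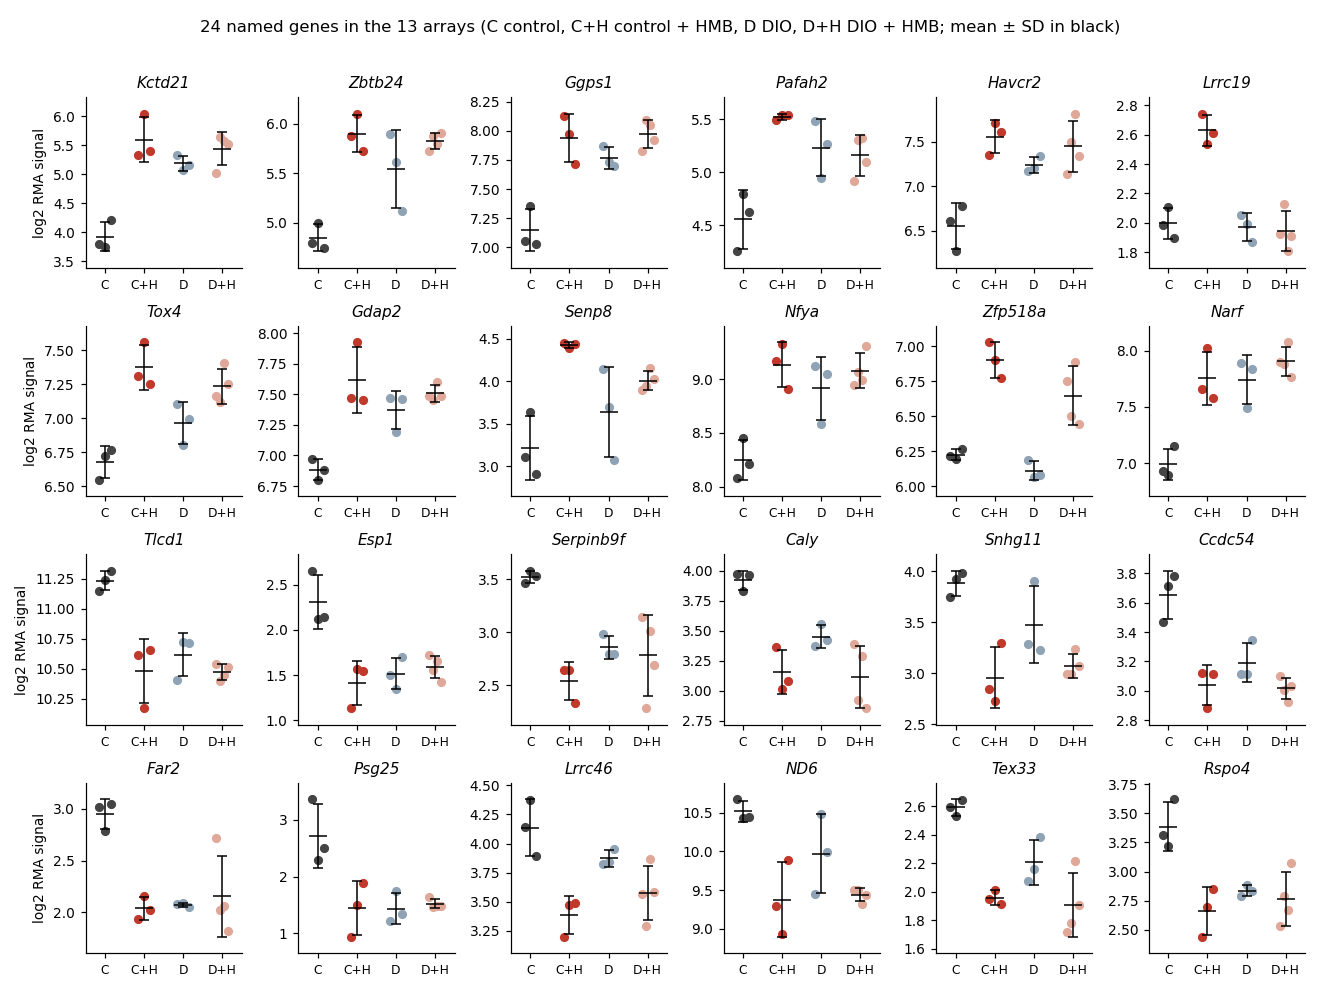
Signal (y axis, log2 RMA signal, a separate range for each gene) of the 12 genes of lowest unadjusted p in each direction in the 13 arrays, 1 dot per array, with the mean ± SD of each group in black. The 3 control arrays lay outside the range of the 10 other arrays in 18 of the 24 genes, 9 in each direction. The genes were chosen by their difference from these control arrays, which favors such a position. Over all 22180 genes the control arrays lay below in 396 and above in 227.

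Among the genes lower in control + HMB, 1 cDNA clone, 1700001J11Rik, had the lowest p, with 3.43, 3.41 and 2.68 in control and 1.81, 1.21 and 1.37 in control + HMB, a difference of −1.71 (SE 0.23). Such low signals are close to the weakest of the array. Of the 12 named lower genes, 10 had signals under 5 in every array of both groups. They included several genes known from tissues other than tumor: Esp1 (−0.90), a pheromone of the tear gland, Psg25 (−1.28), a placental glycoprotein, Caly (−0.76), a neuronal endocytosis protein, and Rspo4 (−0.72), an enhancer of Wnt signaling known for nail growth in humans. Serpinb9f, of the cluster of the granzyme B inhibitor Serpinb9, measured 3.46, 3.57 and 3.53 in control and 2.65, 2.64 and 2.33 in control + HMB. Serpinb9 itself lay the other way, at 6.60, 5.99 and 7.39 against 7.44, 7.71 and 7.42, a difference of 0.86 (SE 0.34). The probes of such clustered genes may not tell close copies apart.

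Tlcd1 and ND6 were the named lower genes with stronger signals. Tlcd1, which limits the content of long polyunsaturated fatty acids in membrane phospholipids, measured 11.15, 11.24 and 11.31 in control and 10.62, 10.17 and 10.66 in control + HMB, a difference of −0.75 (SE 0.15). Another probe set of Tlcd1, of weaker signal, lay the other way, at 0.56, so the direction of Tlcd1 depended on the probe set. ND6, a subunit of respiratory complex I encoded in the mitochondrial genome, measured 10.68, 10.44 and 10.44 against 9.30, 8.94 and 9.89, a difference of −1.14 (SE 0.26). On the probe sets used, all control arrays of both genes lay above all control + HMB arrays. Far2 (−0.91), a fatty acyl-CoA reductase, Snhg11 (−0.93), a noncoding host of small nucleolar RNAs, Ccdc54 (−0.61), Lrrc46 (−0.75) and Tex33 (−0.63) completed the 12, after 5 genes of the skipped kinds. Another probe set of Snhg11, of similar signal, was at 0.10, so the direction of Snhg11 depended on the probe set.

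Genes that make or use HMB and HMG-CoA were next examined. Hpd measured 2.72, 2.91 and 2.69 in control and 2.40, 2.70 and 2.86 in control + HMB (−0.12, SE 0.15). Hmgcs1, which makes HMG-CoA from acetoacetyl-CoA, measured 8.50, 9.09 and 9.25 against 9.12, 9.01 and 9.04 (0.11, SE 0.22). The groups overlapped in both. Of 18 genes of leucine breakdown and ketone body use, 15 were strong genes. Of strong genes, 71.2% were higher and 12.1% were higher at an unadjusted p under 0.05. In the list 13 were higher, 2 (11.1%) of them at that threshold, and 1 was lower at it. The first of these were Mccc1 (0.36, SE 0.13), of the carboxylase that acts on a leucine intermediate, and Dbt (0.33, SE 0.13), of the branched-chain keto acid dehydrogenase. Bckdha, another subunit of that dehydrogenase, was at 7.51, 7.48 and 7.49 in control and 7.09, 7.26 and 7.28 in control + HMB (−0.28, SE 0.12). The median of the list was 0.09, 0.05 above that of all genes. Its direction flipped under both scalings, to −0.12 with scaled arrays and −0.06 with width as a covariate. Relative to all genes the latter medians were −0.0012 and −0.07.

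Of 16 measured genes of cholesterol synthesis, 14 were higher, with a median of 0.26, 3 at an unadjusted p under 0.05 and 0 in the lower direction, and 4 (25.0%) did not overlap, where 18.8% of strong genes did not. These were Nsdhl, a sterol 4-alpha-carboxylate dehydrogenase, at 6.60, 7.30 and 6.98 in control and 7.56, 7.61 and 7.70 in control + HMB (0.67, SE 0.24), Hsd17b7 (0.67, SE 0.30), whose groups overlapped, and Dhcr7 (0.46, SE 0.21), the last reductase of the pathway. The control arrays themselves differed widely, with control replicate 1 lowest in Nsdhl, Hsd17b7 and Dhcr7, and the mean of the list was −0.40, 0.01 and 0.12 in the control arrays and 0.05, 0.15 and 0.35 in the control + HMB arrays, where 0 is the mean of all 13 arrays. Relative to all genes the list's median was 0.23 as deposited, 0.16 with scaled arrays, −0.08 with width as a covariate, where its direction flipped, and 0.23 without control + HMB replicate 2. Without control replicate 1 the median was 0.15, with 10 of 16 higher and 0 genes at that threshold, and without control + HMB replicate 1 or 3, 1 gene was. Fdps (0.03, SE 0.34), Mvd (−0.05, SE 0.23) and Pmvk (−0.16, SE 0.25) overlapped between groups.

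Of 15 genes of the isoprenoid branch and protein prenylation, all strong genes, 12 were higher. At an unadjusted p under 0.05, 1 was lower and 3 (20.0%) were higher, where 12.1% of strong genes were higher. After Ggps1 these were Icmt (0.39, SE 0.16), the methyltransferase that acts on prenylated cysteines, and Chml (0.39, SE 0.18), a Rab escort protein. Fnta, the subunit shared by the farnesyl and type I geranylgeranyl transferases, lay the other way, at 8.02, 8.13 and 8.32 in control and 7.86, 7.79 and 7.91 in control + HMB (−0.30, SE 0.13). The list's mean was below 0 in all 3 control arrays (−0.17 to −0.08) and above 0 in all 3 control + HMB arrays (0.02 to 0.08). Its median was 0.20 and flipped to −0.02 with scaled arrays, which was 0.09 above all genes. Sterol sensing and transport genes were higher in 13 of 14, with a median of 0.16 that flipped to −0.05 with scaled arrays and −0.01 with the covariate. Relative to all genes the latter medians were 0.07 and −0.03. In that list Npc1, which exports cholesterol from lysosomes, was at 8.23, 7.98 and 8.04 against 8.50, 8.60 and 8.33 (0.39, SE 0.12).

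The largest share of non-overlapping genes in a metabolic list of more than 20 genes was in asparagine-linked glycosylation. Of 47 measured genes 41 were higher in control + HMB, 12 at an unadjusted p under 0.05 and 0 in the lower direction, and 19 (40.4%) did not overlap, where 18.8% of strong genes, among which were 45 of the 47, did not. Gnpnat1, which makes N-acetylglucosamine 6-phosphate for the sugar donor UDP-GlcNAc, measured 6.55, 6.06 and 7.05 in control and 7.25, 7.57 and 7.33 in control + HMB (0.83, SE 0.23). The mannosyltransferases that extend the dolichol-linked chain followed. Alg9 measured 6.71, 6.81 and 6.66 against 7.11, 7.33 and 7.20 (0.49, SE 0.14). Alg12 measured 7.08, 6.82 and 6.76 against 7.43, 7.63 and 7.37 (0.59, SE 0.18). Alg11 measured 6.41, 6.60 and 6.01 against 6.88, 6.92 and 6.67 (0.48, SE 0.15). Each of these genes was above the control range in all 3 control + HMB arrays. Dpagt1, which starts the chain on dolichol (0.64, SE 0.22), Gfpt1, the entry enzyme of hexosamine synthesis (0.42, SE 0.14), Stt3a, a catalytic subunit of oligosaccharyltransferase (0.27, SE 0.12), and Mogs, the first trimming glucosidase (0.46, SE 0.21), did not overlap either. Dpagt1 and Mogs, with Mpi, Alg13, Alg10b and Man1b1, make up the rest of the 12.

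The median of the glycosylation list was 0.22 as deposited and flipped to −0.02 when arrays were scaled, which was 0.09 above all genes, and was 0.05 above all genes with width as a covariate. At an unadjusted p under 0.05 the counts were then 1 higher and 3 lower with scaled arrays and 0 higher and 2 lower with the covariate. Without control + HMB replicate 2 or without control replicate 1, 6 genes were higher at that threshold, with medians of 0.22 and 0.17. The mean of the list was −0.21, −0.19 and −0.06 in the control arrays and 0.04, 0.14 and 0.05 in the control + HMB arrays. The DIO + HMB and DIO arrays shared no array with this comparison, and there 20 of the 47 genes were higher and 27 lower.

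**Figure D3:**
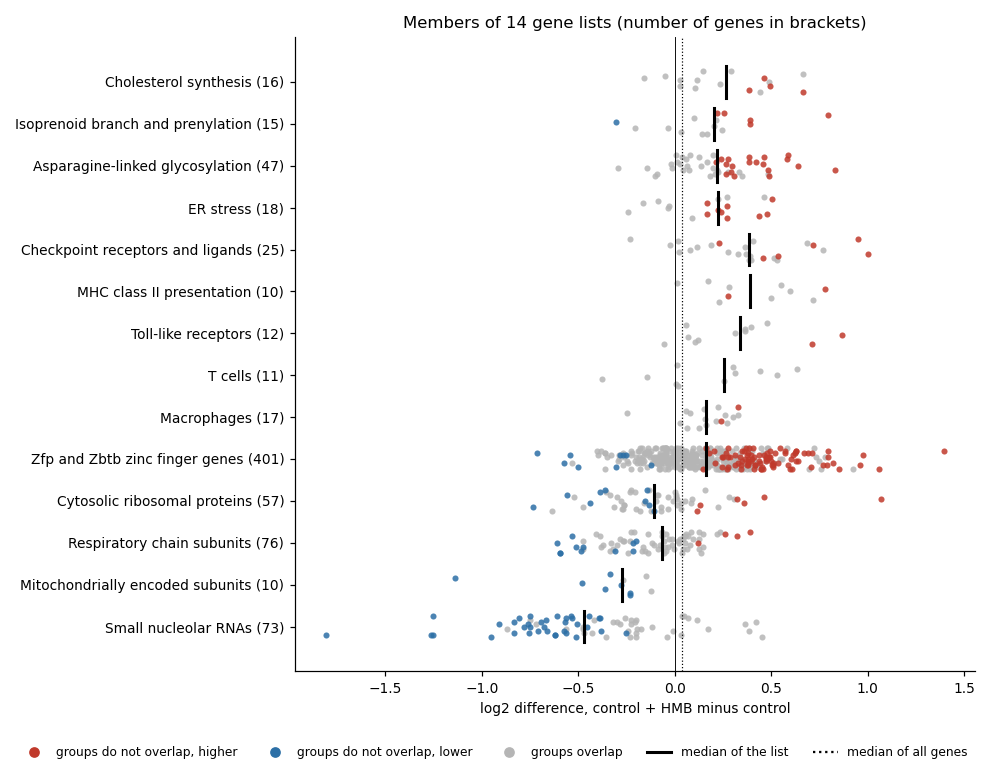
Log2 difference between control + HMB and control (x axis) for each member of 14 gene lists (rows, number of genes in brackets), colored where the 3 arrays of the groups did not overlap, with the median of each list (bar) and of all genes (dotted, 0.04). In asparagine-linked glycosylation 19 of 47 genes were red and 0 blue, and in small nucleolar RNAs 0 of 73 were red and 36 blue. With scaled arrays the medians of the isoprenoid, glycosylation, ER stress, macrophage and zinc finger lists flipped below 0. The median of all genes was then −0.12, and these lists stayed above it, by 0.05 (macrophages) to 0.11 (zinc finger genes). With width as a covariate the medians of cholesterol synthesis and small nucleolar RNAs flipped.

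Chaperones and sensors of the unfolded protein response, which handles misfolded protein in the ER, lay in the same direction. Of 18 measured genes 13 were higher, 5 at an unadjusted p under 0.05 and 0 in the lower direction, and 9 did not overlap, all of them higher. Xbp1, the transcription factor activated by the sensor IRE1, measured 8.28, 8.05 and 8.56 in control and 8.72, 9.04 and 8.65 in control + HMB (0.51, SE 0.16). Herpud1, which takes part in ER-associated degradation, measured 9.30, 9.27 and 9.28 against 9.51, 9.75 and 9.89 (0.43, SE 0.15). The control arrays of Herpud1 lay within 0.04 of each other. Edem1, a lectin of the same degradation route, differed by 0.48 (SE 0.17), Sdf2l1 by 0.46 (SE 0.18) and Atf6, a sensor, by 0.27 (SE 0.12). Another probe set of Edem1 lay the other way, at −0.41, so the gene's direction depended on the probe set. Hspa5, the chaperone BiP, measured 8.03, 8.19 and 8.29 against 8.35, 8.38 and 8.44 (0.22, SE 0.11, unadjusted p 0.069). The abundant chaperone Hsp90b1 (−0.09, SE 0.11) and Dnajc3 (−0.03, SE 0.12) overlapped between groups. The median of the list was 0.22 and flipped to −0.03 with scaled arrays, which was 0.08 above all genes, and was 0.14 above all genes with the covariate and 0.18 without control + HMB replicate 2. Without control replicate 1 or control + HMB replicate 3, 2 genes were higher at an unadjusted p under 0.05.

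Promoter stretches of a few of these genes are shown because they hold an element known from ER stress genes, although most promoters of both lists do not. The ER stress response element was searched on both strands as CCAAT, then 9 bases of any kind, then CCACG, in RefSeq promoters of build GRCm38.p6, each reaching from 250 bases before to 50 bases after a gene's start. It was in 37 of 27025 genes with a promoter (0.137%), where a gene counts if any of its promoters held it. It was in 6 of the 15 ER stress genes with a promoter (40.0%), namely Hspa5, Hsp90b1, Dnajc3, Syvn1, Pdia6 and Creld2, and in 3 of 41 glycosylation genes (7.32%), namely Alg12, Canx and Calr. Below, capitals mark the CCAAT and CCACG parts, or their reverse complements ATTGG and CGTGG where the element lies on the opposite strand, and each sequence reads 5′ to 3′ on the strand of its gene.
Hspa5, chr2:34772010-34772058, + strand: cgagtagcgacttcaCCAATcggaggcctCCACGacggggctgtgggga
Pdia6, chr12:17266476-17266524, + strand: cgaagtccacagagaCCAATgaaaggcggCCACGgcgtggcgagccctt
Alg12, chr15:88819505-88819553, − strand: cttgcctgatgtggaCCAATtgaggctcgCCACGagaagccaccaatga
Creld2, chr15:88819505-88819553, + strand: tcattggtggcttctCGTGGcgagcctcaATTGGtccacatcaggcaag
Calr, chr8:84847060-84847108, − strand: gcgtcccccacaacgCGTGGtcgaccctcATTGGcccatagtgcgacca
Alg12 and Creld2 are neighbors that face away from each other, and the same element on chromosome 15 lies in both promoters. Alg12 differed by 0.59 and Creld2 by 0.17 (SE 0.13), both without overlap between groups. Of the 6 ER stress genes with the element, Pdia6 (0.24), Hspa5, Syvn1 (0.16) and Creld2 did not overlap in the higher direction, and Hsp90b1 and Dnajc3 overlapped. Calr, the glycoprotein chaperone calreticulin, differed by 0.21 (SE 0.12) without overlap. A match is a description of letters and not a measured binding site.

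The CCAAT box by itself, searched as CCAAT on both strands, is the core of that element and the letters that NF-Y recognizes. It was in 41.1% of all genes with a promoter. Of measured genes whose mean signal over the 6 control-diet arrays was above the median, 42.5% held it. It was in all 13 cholesterol synthesis genes with a promoter and in 13 of 15 ER stress genes (86.7%). It was also in 23 of 41 glycosylation genes (56.1%) and in 5 of the 12 named higher genes (41.7%). The boxes of the sterol genes with the largest separation and of Ggps1 are given with the 5 letters in capitals.
Nsdhl, chrX:72918397-72918431, + strand: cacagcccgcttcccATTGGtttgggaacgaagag
Dhcr7, chr7:143830114-143830148, + strand: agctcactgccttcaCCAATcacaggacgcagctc
Ggps1, chr13:14063670-14063704, − strand: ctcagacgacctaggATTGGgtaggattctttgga
The box lay 109, 85 and 201 bases before the start of Nsdhl, Dhcr7 and Ggps1. Measured against control, these genes differed by 0.67, 0.46 and 0.79. The box was in 6 of 13 genes of the isoprenoid list that holds Ggps1 (46.2%) and in 49.1% of zinc finger genes with a promoter.

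Cytosolic ribosomal protein genes lay mainly in the opposite direction, and other genes of translation were split. Of 26 translation factors 12 were higher and 14 lower, 0 at an unadjusted p under 0.05. Of 70 mitochondrial ribosomal protein genes, 67 of them strong genes, 32 were higher and 38 lower, 4 (5.71%) in each direction at that threshold. In the higher direction 14 (20.0%) did not overlap and in the lower 4 (5.71%), where 18.8% and 3.76% of strong genes did not. Of 57 cytosolic ribosomal protein genes, 51 of them strong genes, 38 were lower in control + HMB, and the median was −0.11. At an unadjusted p under 0.05, 7 (12.3%) were lower and 3 (5.26%) higher, where 2.48% and 12.1% of strong genes were. Rps28 measured 10.68, 10.41 and 10.94 in control and 9.87, 9.70 and 10.25 in control + HMB (−0.74, SE 0.22), and Rps19 differed by −0.56 (SE 0.21) and Rpl7 by −0.39 (SE 0.15). Weaker probe sets of Rps28 and Rps19 were at 0.07 and 0.05. Rps27 lay the other way, at 4.77, 5.62 and 6.03 against 6.39, 6.60 and 6.63 (1.07, SE 0.29). Ribosomal protein genes have many near-identical copies in the genome, and the probes may not separate them. Relative to all genes the list's median was −0.14 as deposited, −0.28 with scaled arrays, where 25 were lower at that threshold, and −0.10 with the covariate, and −0.12 without control + HMB replicate 2, so it kept its direction. The 7 lower genes became 2 without that array or without control replicate 3, 4 without control replicate 1 and 11 without control + HMB replicate 3.

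Of 76 nuclear genes for respiratory chain subunits, 49 were lower, 10 at an unadjusted p under 0.05 with 2 higher, where 4.22% of all genes were lower. Ndufa1, of complex I, measured 7.99, 7.75 and 8.19 in control and 7.31, 7.32 and 7.53 in control + HMB (−0.59, SE 0.15). Ndufs3 differed by −0.51 (SE 0.16), Ndufb10 by −0.48 (SE 0.15) and Uqcrh, of complex III, by −0.48 (SE 0.17), all without overlap. The median of the list was −0.07, and it stayed below that of all genes with scaled arrays (by −0.19), with the covariate (−0.14) and without control + HMB replicate 2 (−0.13). The 10 lower genes became 4 without that array, 5 without control replicate 3 and 6 without control + HMB replicate 1.

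The subunits encoded in the mitochondrial genome were all lower. This list and the lists of small nucleolar RNAs, zinc finger genes and Toll-like receptors were added after ND6 and others had been seen among the leading genes, so their counts describe what was noticed. In 10 of 10 mitochondrially encoded genes, all strong genes, the difference was below 0. At an unadjusted p under 0.05, 4 (40.0%) were lower, and 7 (70.0%) did not overlap. Of strong genes, 2.48% were lower at that threshold and 3.76% did not overlap in that direction. After ND6, ND2 measured 12.31, 12.26 and 12.25 in control and 11.88, 11.51 and 11.99 in control + HMB (−0.48, SE 0.14). CYTB differed by −0.36 (SE 0.13) and ND1 by −0.34 (SE 0.13). The control arrays of the list were close, at 0.20 to 0.23 on the centred scale, whereas the control + HMB arrays ran from −0.38 in replicate 2 to 0.05. The median was −0.27, lower relative to all genes by −0.31, by −0.52 with scaled arrays, where 10 of 10 were lower at that threshold, by −0.12 with the covariate, where 0 were, and by −0.19 without control + HMB replicate 2, where 2 were. Without control + HMB replicate 3, 7 were.

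Small nucleolar RNAs, which guide the chemical modification and cleavage of ribosomal and other RNAs, were mainly lower. Of 73 measured, 63 were lower in control + HMB, 28 at an unadjusted p under 0.05 and 0 in the higher direction, and 36 (49.3%) did not overlap, against 3.76% of strong genes, among which were 69 of the 73. Snord70, a box C/D RNA, measured 8.77, 8.93 and 9.08 in control and 8.19, 7.70 and 8.40 in control + HMB (−0.83, SE 0.18). Snord118, the U8 RNA needed to mature the large ribosomal subunit's RNA, measured 7.46, 7.39 and 7.24 against 5.85, 4.74 and 6.08 (−1.81, SE 0.48). Snord82 measured 11.28, 11.03 and 11.11 against 10.51, 9.99 and 10.68 (−0.75, SE 0.20). In all 3 the control arrays were close together and control + HMB replicate 2 was the lowest. Snord83b (−1.25), Snord47 (−0.69) and Snora30 (−1.27), a box H/ACA RNA, showed the same order of groups.

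That replicate had the lowest value of the 6 arrays in 61 of the 73 small nucleolar RNAs. Without it the median moved from −0.47 to −0.30 and 9 RNAs were lower at an unadjusted p under 0.05, with 1 higher. Without control replicate 1 or 2 the lower RNAs numbered 15 and 16. The list's direction flipped to 0.15 when array width was a covariate, with 1 higher and 1 lower, and it was −0.73 with scaled arrays. The part of array width in this difference was not tested. The host genes from whose introns such RNAs are cut did not show the same size, with 10 of 15 lower and a median of −0.10, which was −0.03 without control + HMB replicate 2. In DIO + HMB against DIO, which shared no array with this comparison, 69 of 73 were lower, 14 at an unadjusted p under 0.05, but 0 did not overlap.

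**Figure D4:**
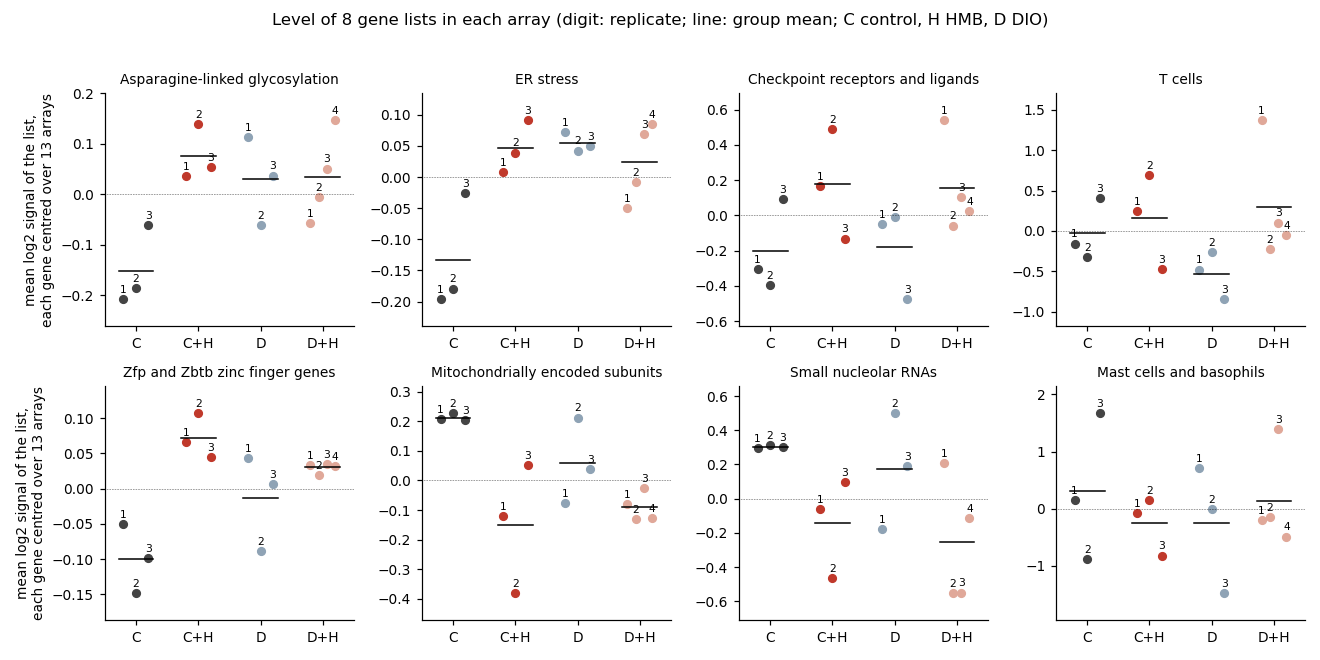
Mean of 8 gene lists in each of the 13 arrays (y axis, mean log2 signal with each gene centred over 13 arrays), with a digit for the replicate and a line for the group mean. The control arrays of small nucleolar RNAs lay at 0.30 to 0.32 and the control + HMB arrays at −0.46 to 0.10, a direction that flipped with array width as a covariate. The control arrays of mast cell genes ran from −0.87 to 1.67.

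Zinc finger genes of the Zfp and Zbtb names, most of which are DNA-binding repressors of the KRAB family, were higher in 284 of 401. At an unadjusted p under 0.05, 85 (21.2%) were higher and 4 lower, where 7.22% of all genes and 12.1% of strong genes were higher. Of the 401 genes, 267 were strong genes. In the higher direction 91 (22.7%) did not overlap, where 11.4% of all genes and 18.8% of strong genes did not. In the lower direction 9 did not overlap. Beside Zbtb24 and Zfp518a, Zfp267 measured 6.56, 6.55 and 6.74 in control and 7.25, 7.16 and 7.15 in control + HMB (0.57, SE 0.12), and Zfp1 measured 5.08, 4.74 and 4.77 against 5.76, 5.68 and 5.53 (0.79, SE 0.19). All control + HMB arrays of both genes were above the control arrays. Of those in the lower direction, Zfp839 differed by −0.50 (SE 0.14). The mean of the list was −0.05, −0.15 and −0.10 in the control arrays and 0.07, 0.11 and 0.04 in the control + HMB arrays. The median of 0.16 fell to just under 0 (−0.0019) with scaled arrays, which was 0.11 above all genes, with 26 higher and 14 lower, and stood 0.07 above all genes with the covariate and 0.11 without control + HMB replicate 2, where 55 were higher at that threshold. Without control replicate 2, 8 were lower. Many of these genes are close copies, and the probes may not tell them apart.

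Among immune genes, checkpoint receptors and their ligands were higher in 23 of 25. The groups did not overlap in 6 (24.0%), where 18.8% of strong genes, among which were 23 of the 25, did not in the higher direction. At an unadjusted p under 0.05, 5 (20.0%) were higher, where 12.1% of strong genes were, and 0 lower. After Havcr2 these were Pdcd1 (0.77, SE 0.28), the receptor PD-1, at 5.51, 5.88 and 6.70 in control and 6.69, 6.97 and 6.72 in control + HMB, and Lgals9, a ligand of TIM-3, at 9.29, 9.59 and 9.74 against 9.95, 10.25 and 10.02 (0.54, SE 0.20). The groups overlapped narrowly in Pdcd1 and were separate in Lgals9. Cd86 (0.46, SE 0.20) and Cd200 (0.72, SE 0.32) were the others. Of the TIM family and its ligands, Hmgb1 (−0.28, SE 0.14) lay lower without overlap, and Havcr1 (−0.35, SE 0.25), Bag6 (−0.14, SE 0.11), Ceacam1 (0.27, SE 0.39), Timd4 (0.19, SE 0.70) and Timd2 (−0.04, SE 0.15) overlapped. The checkpoint list's median of 0.38 was above all genes by 0.35 as deposited, 0.33 with scaled arrays and 0.20 with the covariate, and by 0.13 without control + HMB replicate 2, where 1 gene was higher at that threshold. Without control replicate 2 it was 2 genes.

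Genes of antigen presentation by MHC class II, all strong genes, were higher in 10 of 10. At an unadjusted p under 0.05, 3 (30.0%) were higher, and 2 (20.0%) did not overlap. Of strong genes, 12.1% were higher at that threshold and 18.8% did not overlap in that direction. H2-DMb1, which helps load peptides, measured 4.49, 5.17 and 4.62 in control and 5.53, 5.88 and 5.19 in control + HMB (0.78, SE 0.24). H2-Aa (0.28, SE 0.12) and H2-Ab1 (0.28, SE 0.12), the chains of the main class II molecule of this strain, were the others. The 3 calls became 1 when control replicate 1 or 2 or control + HMB replicate 2 was left out, with the 6 arrays alone or with scaled arrays, and 0 with the covariate. Class II genes share sequence, and control + HMB replicate 2 was the highest array in all 3. Toll-like receptors were higher in 11 of 12, led by Tlr1 at 7.58, 7.47 and 7.52 against 8.27, 8.38 and 8.05 (0.71, SE 0.15) and Tlr8 at 6.23, 5.64 and 6.53 against 7.10, 6.99 and 6.91 (0.87, SE 0.20). Relative to all genes the class II median was 0.36 and that of the Toll-like receptors 0.30. Both stayed above all genes with scaled arrays (0.26 and 0.30), with the covariate (0.38 and 0.21) and without control + HMB replicate 2 (0.13 and 0.09), where the values were smaller. The Toll-like receptor median rested on control replicate 2: without it the median was 0.03, which was 0.01 above all genes, with 8 of 12 higher. The list mean of control replicate 1 (0.11) lay above those of control + HMB replicates 1 and 3.

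Markers of the cells that carry these molecules were examined beside them. Of 17 macrophage markers 16 were higher, 0 at an unadjusted p under 0.05 in either direction. Their median of 0.16 flipped to −0.07 with scaled arrays, which was 0.05 above all genes. Csf1r measured 9.92, 9.89 and 10.03 in control and 9.87, 10.33 and 10.13 in control + HMB, and Mpeg1 measured 9.996, 10.23 and 10.34 against 10.39, 10.68 and 10.49 without overlap. Without control replicate 3 the macrophage median was 0.27, and 5 genes were higher at that threshold. The median was 0.06 without control replicate 2 or without control + HMB replicate 2, and 0.05 with the covariate. The macrophage mean ran from −0.28 to 0.12 in control and from −0.08 to 0.22 in control + HMB. Of 16 genes of M2-like polarization 14 were higher, with a median of 0.34 that was 0.05 without control + HMB replicate 2 and 0.11 with the covariate. Il4ra was at 8.82, 8.85 and 8.85 against 8.998, 9.25 and 9.22 (0.32, SE 0.14), and Chil3 (1.10, SE 0.50) overlapped. Of 11 M1-like genes 9 were higher and 1 passed an unadjusted p under 0.05, and the median of 0.23 turned to −0.11 with the covariate. The part of macrophage content in the checkpoint, class II and Toll-like receptor values was not tested.

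T cell markers were higher in 9 of 11, 0 at an unadjusted p under 0.05, with a median of 0.25. Cd3e measured 9.16, 8.997 and 9.35 in control and 9.43, 9.43 and 8.67 in control + HMB, and the T cell mean ran from −0.33 to 0.41 in control and from −0.47 to 0.69 in control + HMB. The groups overlapped, and the highest array was control + HMB replicate 2. Without it the T cell median was −0.15, so the direction rested on that array, and without control replicate 2 the median was 0.08. Of 20 genes of cytotoxic lymphocytes and natural killer cells 17 were higher and 2 passed an unadjusted p under 0.05, Klre1 (0.52, SE 0.19) and Eomes (0.67, SE 0.26), and the median of 0.38 was 0.21 without that array. Without control replicate 3 it was 0.63 with 6 genes higher at that threshold, and without control + HMB replicate 3 it was 0.54 with 4. Without control replicate 1 it was 0.12, with 12 of 20 higher and 0 genes at that threshold.

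Of 8 measured genes of platelet-activating factor, a phospholipid mediator of inflammation, 7 were higher and 1 lower. Pafah2, Pafah1b3 (0.33, SE 0.15) and Pla2g7 (0.37, SE 0.17), which degrade it, were higher at an unadjusted p under 0.05. They were 37.5% of the 8 genes, all strong genes, of which 12.1% were higher at that threshold. Pafah1b1, the non-catalytic subunit of the brain form, measured 8.84, 8.89 and 8.81 in control and 8.57, 8.40 and 8.64 in control + HMB (−0.31, SE 0.13). The synthesizing acyltransferases Lpcat1 (0.04, SE 0.12) and Lpcat2 (0.06, SE 0.22) overlapped between groups. The list's median of 0.30 was 0.06 with scaled arrays 0.04 with the covariate and 0.17 without control + HMB replicate 2. The 3 genes higher at an unadjusted p under 0.05 became 1 in each of these. They also became 1 with the 6 arrays alone, without control replicate 2 or without control + HMB replicate 3.

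Several other cell types of the tumor differed widely between arrays of a group. All 11 mast cell and basophil genes were lower in control + HMB, with a median of −0.59, but 0 at an unadjusted p under 0.05, and the difference rested on control replicate 3. Cpa3, a mast cell carboxypeptidase, measured 9.42, 7.14 and 10.90 in control and 8.43, 8.94 and 7.32 in control + HMB. Without control replicate 3 the mast cell median was 0.00, and with width as a covariate it was −2.22 with 4 genes lower at that threshold. Adipocyte genes were higher in 11 of 11 (median 0.52) and skeletal muscle genes lower in 11 of 14 (−0.41), with 0 at that threshold in either list. The adipocyte mean ran from −1.58 to 0.91 in control and from −0.37 to 0.66 in control + HMB, and the muscle mean from −1.04 to 1.85 and from −1.25 to 0.36. Without control replicate 1 the adipocyte median was 0.05, without control replicate 2 it was 1.36 and without control + HMB replicate 2 it was 0.19. The muscle median turned to 0.33 without control replicate 3 and to 0.09 without control + HMB replicate 1, and it was −3.58 with the covariate, where 7 genes were lower at that threshold. Endothelial genes were higher in 17 of 18 (median 0.25), 0 at that threshold, with Eng at 8.16, 8.11 and 7.92 against 8.20, 8.74 and 8.24. The endothelial mean did not overlap between groups, at −0.22 to −0.11 in control and −0.05 to 0.28 in control + HMB, and the median was 0.11 without control + HMB replicate 2, 0.05 with scaled arrays and 0.17 with the covariate. Acta2, the actin of smooth muscle and myofibroblasts, measured 8.27, 7.98 and 8.13 in control and 9.03, 9.29 and 9.52 in control + HMB (1.15, SE 0.41), and its groups did not overlap. Its list was higher in 8 of 12 with a median of 0.25, which was 0.02 with scaled arrays. Lmod1, a leiomodin of smooth muscle, lay the other way (−0.42, SE 0.16).

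Of 25 mTORC1 subunits and regulators, 22 of them strong genes, 16 were higher. At an unadjusted p under 0.05, 4 (16.0%) were higher and 1 (4.0%) lower, where 12.1% and 2.48% of strong genes were. The median of 0.03, beside 0.04 for all genes, flipped to −0.18 with scaled arrays and −0.07 with the covariate. Relative to all genes the latter medians were −0.06 and −0.08. The 4 became 1 without control replicate 1 or control + HMB replicate 2, and 2 with the 6 arrays alone. Lamtor4, of the lysosomal anchor of mTORC1, measured 7.10, 7.34 and 7.64 in control and 6.68, 6.70 and 6.91 in control + HMB (−0.60, SE 0.18). Lamtor3 of the same complex lay the other way, at 8.83, 8.78 and 8.94 against 9.16, 9.25 and 9.21 (0.36, SE 0.12), although its other probe set was at 0.01. Sesn2, a leucine sensor, differed by 0.71 (SE 0.27). Genes of replication and mitosis were higher in 19 of 28 with a median of 0.09, 0 at that threshold, and the median flipped to −0.16 with scaled arrays, −0.26 with the covariate and −0.02 without control replicate 1. ATF4 targets, which respond to shortage of amino acids, had a median of 0.10 that flipped under both scalings. Relative to all genes it was 0.04 with scaled arrays and −0.13 with the covariate. Slc7a1, an arginine and lysine transporter, measured 6.69, 6.98 and 7.09 against 7.27, 7.53 and 7.65 (0.56, SE 0.20).

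**Figure D5:**
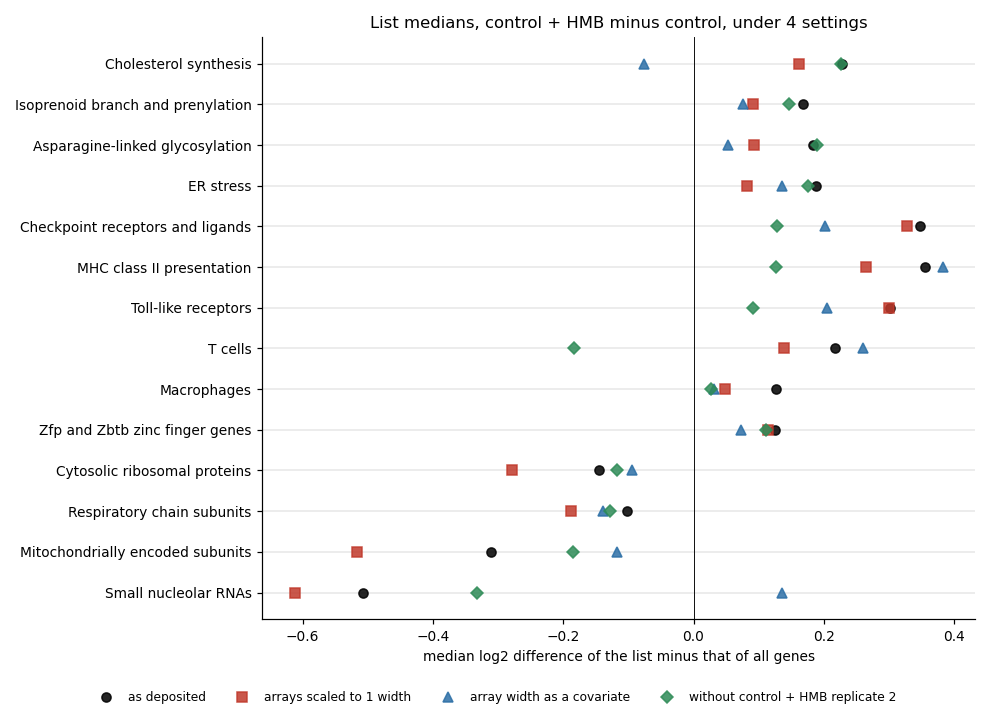
Median log2 difference of 14 gene lists minus that of all genes (x axis) as deposited, with arrays scaled to 1 width, with array width as a covariate and without control + HMB replicate 2. Medians on the left of 0 were below all genes: cholesterol synthesis with the covariate, T cells without that replicate, and the ribosomal, respiratory, mitochondrially encoded and small nucleolar RNA lists except for the last with the covariate (0.14).

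Finally, the difference was set beside the other groups of the study. Of all 22180 genes, the control arrays lay below all 10 other arrays in 396 and above them in 227. They lay outside in 18 of the 24 named genes. Those genes were chosen by their difference from these same control arrays, a choice that favors such a position. Kctd21 measured 5.07 to 5.33 in DIO and 5.02 to 5.65 in DIO + HMB, Ggps1 7.69 to 7.87 and 7.82 to 8.09, and Havcr2 7.17 to 7.34 and 7.13 to 7.81. The control arrays of these genes, with no HMB and no obesity, were therefore the lowest of the study, and the comparisons of DIO and of control + HMB with control share those arrays. Lrrc19 was an exception, at 1.87 to 2.05 in DIO and 1.81 to 2.13 in DIO + HMB, near its control level. Zfp518a was another, at 6.07 to 6.19 in DIO and 6.44 to 6.89 in DIO + HMB, and it differed in both diets.

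The HMB difference in obese mice minus that in control-diet mice, the interaction of diet and HMB, passed the adjusted threshold for 0 genes by limma (no adjusted p was below 0.933). Before adjustment 1068 genes (4.82%) had a p under 0.05, 361 (1.63%) in the higher and 707 (3.19%) in the lower direction. In DIO + HMB against DIO, 740 genes (3.34%) were higher and 831 (3.75%) lower at that threshold, 7.08% in all, and 3.57% and 4.22% did not overlap. In DIO against control, 955 (4.31%) were higher and 762 (3.44%) lower, 7.74% in all. The 2 HMB comparisons share no array, and their differences correlated at 0.292 over all genes and 0.384 over strong genes, where genes are not independent replicates. Of the 24 named genes, which were chosen on the control-diet difference, 19 had the same direction in DIO + HMB against DIO and 5 had an unadjusted p under 0.05 there. Zfp518a (0.53, SE 0.13) was among them, and ND6 differed by −0.53 (SE 0.24). The share of all genes with the same direction in both diets was not counted. In 18 of the 24 the interaction had an unadjusted p under 0.05 by limma, where 4.82% of all genes did. Choosing genes on the control-diet difference favors a low interaction p as well. For Kctd21 the DIO difference was 0.25 (SE 0.20) and for Ggps1 0.21 (SE 0.13).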

How the data were processed

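RNA of 13 tumors, 1 mouse each, was measured on Affymetrix Mouse Gene 2.1 ST arrays. The deposited values are log2 signals that the authors obtained by RMA. Per the labels the submitters' processing notes name RMA, affy and limma, with versions not given in the sources used here. RMA makes array distributions alike before probe sets are summarized, so a difference is relative to the other probe sets. No genome build is given there for the array. Promoters are RefSeq, GRCm38.p6, matched by symbol.

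Of 41345 probe sets with 0 missing values, 23521 had 1 gene symbol, 1820 several and 16004 none here. Where several probe sets named a gene (1082 genes), that of highest mean signal stood for it, giving 22180 genes with no filter on low signal. A single limma fit (lmFit, then eBayes; limma 3.58.1 under R 4.3.3) used all 13 arrays with a mean for each of 4 groups, leaving 9 residual degrees of freedom. Tests were two-sided, adjusted by Benjamini-Hochberg over all genes. Precision is limited by how many arrays there are. At the median SE of 0.189 a log2 difference of 0.41 is needed for an unadjusted p of 0.05. Simulated data were used to test the script. Figures used matplotlib 3.10.9.

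The gene lists, the named genes and the comparison were chosen with earlier results of these data known, and 7 lists were added after the values were seen. Named are the 12 genes of lowest unadjusted p in each direction, skipping predicted genes, clones, small RNAs and odorant, vomeronasal and taste receptors, then up to 4 members per direction of each list described, and HMB-handling genes, the KCTD and TIM families and cell type markers. Serpinb9, Csf1r, Cd3e, Eng and the lipid enzymes that overlapped were named after their values were seen.

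Alternatives were the 6 arrays alone, strong genes only, scaled arrays, array width as a covariate, the mean of probe sets, a variance trend, array weights, the methods' t-test, a replicate block and each array left out. All probe sets, the lists without 1 array and the settings for 10 of the 32 lists were added after the data were seen.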

Additional observations from a re-analysis of the deposited data

Results flagged for a closer look

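Groups of 3 arrays are too small for a test for outlying arrays, so none was run on control or control + HMB. Probe sets without a gene symbol here were outside the report's comparisons, and in a fit over all 41345 probe sets 2 of them passed the adjusted threshold by limma. Probe set 17200251 measured 2.02, 2.38 and 2.08 in control and 4.21, 4.27 and 4.61 in control + HMB, a log2 difference of 2.20 (SE 0.25, adjusted p 0.0456). In DIO it measured 3.78, 3.73 and 2.86, and in DIO + HMB it was lower by a log2 difference of −0.19. Probe set 17205999 measured 5.07, 4.86 and 5.02 in control and 6.35, 6.09 and 6.79 in control + HMB, a difference of 1.43 (SE 0.17, adjusted p 0.0456), and its difference in DIO mice was 0.26. What these probe sets measure was not analysed here. That setting was chosen after seeing the data.

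Hspa5, the ER chaperone BiP, was the first of 2 genes, among the named genes and the members of the lists whose alternatives were run (odorant receptors and zinc finger genes not searched), in which HMB groups did not overlap their controls and lay on opposite sides in the 2 diets. Every control + HMB array lay above the control arrays (0.22) and every DIO + HMB array below the DIO arrays (−0.20). The difference between the diets was −0.43 (SE 0.15, unadjusted p 0.016, adjusted p 0.933 by limma), so it did not pass over all genes. Lmod1, a leiomodin of smooth muscle, lay the opposite way, at −0.42 on the control diet and 0.54 in DIO mice. Its difference between the diets was 0.96 (SE 0.22, unadjusted p 0.000836, adjusted p 0.933 by limma). Over all genes, 11.4% did not overlap in the higher and 6.07% in the lower direction on the control diet. In DIO mice these shares were 3.57% and 4.22%. Whether 2 genes are more than such shares would give was not tested.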

How the results depend on the processing

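Of 22180 genes 0 passed the adjusted threshold in most settings. With weak genes left out 1 passed, Kctd21 (adjusted p 0.0471 by limma). With an intensity trend and robust prior 2 passed (Kctd21 and 1700001J11Rik, 0.039), and with all probe sets 2. Leaving out 1 array at a time gave 0 to 1: 1700001J11Rik without control replicate 3 (0.0367) and Kctd21 without DIO + HMB replicate 1 (0.0437). The genes higher at an unadjusted p under 0.05 then numbered 935 to 1760 and the lower 595 to 1039, both lowest without control + HMB replicate 2. Scaled arrays gave 355 higher and 1956 lower, width as a covariate 530 and 427, and strong genes alone 314 lower. The interaction had 0 genes throughout, 0 to 0 over the left-out arrays.

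List medians changed sign with scaled arrays in asparagine-linked glycosylation (−0.0229), ER stress (−0.0349), isoprenoids (−0.0246), leucine breakdown (−0.12), macrophages (−0.0676), zinc finger genes (−0.0019), ATF4 targets (−0.0723) replication (−0.16), sterol sensing (−0.0513), mTORC1 (−0.1796) and the KCTD family (−0.092), and with width as a covariate in cholesterol synthesis (−0.0601), leucine breakdown (−0.0578), small nucleolar RNAs (0.15), odorant receptors (0.0284), ATF4 targets (−0.11) replication (−0.26), sterol sensing (−0.0133) and mTORC1 (−0.0667). With scaled arrays the median of all genes was itself −0.12. Relative to it, leucine breakdown (−0.0012), replication (−0.0438) and mTORC1 (−0.0631) lay below. The other lists named for scaled arrays lay above it. The median of odorant receptors was −0.08 as deposited, with 694 of 1088 lower. With weak genes left out the median was 0.16, which rested on the 4 odorant receptors that were strong genes. The median of the TIM family also changed sign with scaled arrays (−0.0202), and that of M1-like polarization with width as a covariate (−0.1078). Over the left-out arrays the TIM family ran from −0.1227 to 0.207. The cause was not tested. The 24 named genes kept their direction and their side of the threshold in 513 values under these alternatives, and in 3 more Kctd21 passed it. None of the 24 passed in the main fit, so keeping their side meant not passing. Sizes were not compared, and the count includes Tlcd1 and Snhg11, whose direction depended on the probe set.

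Replicate numbers are shared between groups, but same-numbered control and control + HMB arrays did not deviate together (correlations −0.07, −0.16 and −0.11). With 3 arrays per group these values cannot show whether the numbers pair the mice, and the labels do not say. With a replicate block 0 genes passed, 1239 were higher and 734 lower at an unadjusted p under 0.05, and the interaction again had 0. The interaction could not be fitted with the 6 arrays alone.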
